A study of Mus musculus with 8 samples.

Results

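The insulin-like growth factor (IGF) binding proteins and the IGF1 receptor were followed by 7 genes, *Igfbp2*, *Igfbp3*, *Igfbp4*, *Igfbp5*, *Igfbp6*, *Igfbp7* and *Igf1r*, of the 19590 genes listed in the bulk tables and single-cell plates. They were matched by gene symbol, and they were chosen as a family after *Igfbp4* had been seen to be low in bulk EGFP+ cells and *Igfbp3* to be high in basal interfollicular cells of lineage-traced mice, so those values are given as a description without a test. *Igfbp1* had no row in any table.

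All samples were back skin epidermis of adult C57BL/6 mice in the resting phase of the hair cycle (telogen), and all mice carried the *Troy*-EGFP-IRES-CreERT2 knockin, in which a cassette of EGFP and a tamoxifen-inducible Cre stands in place of the coding region of *Troy* (*Tnfrsf19*). For bulk sequencing, DAPI- viable cells, ITGA6bright EGFP+ cells and ITGA6bright EGFP- cells (ITGA6 is an integrin of the basal layer) were sorted from each of 2 untraced mice. For single-cell sequencing, 1 plate of 384 wells was filled from each of 4 untraced *Troy*-EGFP mice, with EGFP+ and EGFP- cells. A further plate came from each of 2 traced mice, which were homozygous for both the knockin and a Rosa26-LSL-tdTomato reporter, received tamoxifen and gave tdTomato+ and tdTomato- cells. The sort gate of a well was not used here. Genotype, tamoxifen and sequencing run cannot be told apart between the traced and untraced plates, and no test was made between them.

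IGF binding proteins are secreted carriers that hold IGF1 and IGF2 in the extracellular space, shield the IGF1 receptor from its ligands or deliver ligands to it, and release them when proteases cut the carrier. IGFBP2 to IGFBP6 bind IGFs with high affinity, whereas IGFBP7 binds them weakly. The IGF1 receptor, encoded by *Igf1r*, is a receptor tyrosine kinase that signals through PI3 kinase and AKT, and in skin it is known in keratinocytes of the basal layer and the hair follicle.

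In the GENCODE vM21 annotation of the mouse genome build GRCm38, the members lie on 5 chromosomes. *Igfbp2* (chr1:72824503-72852474, plus strand) and *Igfbp5* (chr1:72857932-72874884, minus strand) are neighbours that lie 5457 bases apart and converge. *Igfbp3* lies at chr11:7206086-7213923 on the minus strand, 3539 bases from *Igfbp1*, and *Igfbp4* lies on the same chromosome at chr11:99041244-99054392 on the plus strand. *Igfbp6* lies at chr15:102144362-102149511 (plus strand), *Igfbp7* at chr5:77349240-77408041 (minus strand) and *Igf1r* at chr7:67952827-68233668 (plus strand). *Igfbp7* overlaps *Polr2b* and *Gm34648* on the opposite strand, and whether reads were counted by strand is not given in the sources used here, so its counts could include theirs.

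The upstream promoter stretches of *Igfbp3* and *Igfbp4* are shown because most of the values below turn on these 2 genes. Each run is the 250 bases before the RefSeq start (GRCm38.p6), 5′ to 3′ on the gene's own strand, and capitals mark a TATAAA motif.
Igfbp3 (chr11:7213924-7214173, minus strand): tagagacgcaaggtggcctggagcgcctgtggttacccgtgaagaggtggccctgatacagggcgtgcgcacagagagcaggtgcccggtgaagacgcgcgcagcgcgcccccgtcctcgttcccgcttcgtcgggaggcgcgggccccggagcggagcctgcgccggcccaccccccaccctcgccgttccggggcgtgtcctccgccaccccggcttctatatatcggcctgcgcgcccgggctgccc
Igfbp4 (chr11:99040994-99041243, plus strand): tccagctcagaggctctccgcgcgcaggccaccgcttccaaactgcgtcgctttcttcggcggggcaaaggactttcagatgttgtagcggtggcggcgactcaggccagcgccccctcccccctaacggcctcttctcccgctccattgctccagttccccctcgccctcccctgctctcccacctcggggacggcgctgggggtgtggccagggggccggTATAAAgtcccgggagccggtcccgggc

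Both stretches were rich in G and C, with 73.2% for *Igfbp3* and 69.2% for *Igfbp4*. The motifs were searched on both strands. They were the TATA box, written TATAAA, the GC box that Sp factors bind, written GGGCGG, and the promoter element CCAAT. The element that AP-1 factors bind was written TGANTCA, and the element that helix-loop-helix factors bind was written CACGTG. The search found 1 match in the *Igfbp4* stretch, TATAAA, which starts 28 bases before the gene start, and none in that of *Igfbp3*. Only the exact string TATAAA was searched for. The *Igfbp3* stretch holds the similar run tatatat near its end, so the search does not show that it lacks a TATA box. Of 32851 mouse promoters of the same length, 12.4% held the string TATAAA, 32.7% the GC box, 33.9% CCAAT, 6.75% the AP-1 element and 6.02% the helix-loop-helix element. A match is a description of the letters in this window and not a bound site.

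The 6 bulk libraries held 157537 to 453005 counts each, of which 12.5% to 16.1% were mitochondrial. The basal keratins *Krt5* and *Krt14* were present in every library, at 6836 to 16296 and 3209 to 5892 counts per 1000000 (CPM), respectively, and *Troy* stood at 67.4 and 102 CPM in EGFP+ cells against 19.0 and 31.9 in EGFP- cells. *Itga6*, which encodes the integrin of the sort, stood at 129 and 207 CPM in EGFP+ and 108 and 174 CPM in viable cells but at 25.4 and 79.7 CPM (4 and 15 counts) in EGFP- cells, so its transcript was not higher in the libraries labelled ITGA6bright EGFP- than in viable cells. The plates held 236806 to 1064648 estimated transcripts, and wells with at least 1000 transcripts were kept, 71 to 262 per *Troy*-EGFP plate and 229 and 200 per traced plate. *Troy* was at 27.1 to 119 CPM in basal interfollicular cells of the 4 *Troy*-EGFP mice and had 1 and 0 transcripts in those of the 2 traced mice. Markers of Langerhans cells and T cells also differed between the sorted populations, and their values stand beside *Igfbp4* below.

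*Igfbp4* was low in EGFP+ and high in EGFP- cells of both bulk mice. This carrier binds IGF1 and IGF2 and is cut by the protease PAPP-A. In mouse 1, it had 37 counts in viable cells, 11 in EGFP+ cells and 29 in EGFP- cells, or 121, 27.2 and 184 CPM. In mouse 2, it had 60, 2 and 123 counts, or 132, 8.43 and 653 CPM. Both EGFP+ libraries thus stood below all 4 other libraries, and both EGFP- libraries stood above all 4 others. The means were 127 ± 7.92 CPM in viable, 17.8 ± 13.3 in EGFP+ and 419 ± 332 in EGFP- cells (SD, n = 2 mice). Since the gene was chosen for this pattern, no test is given. The fitted log2 difference of EGFP+ against EGFP- cells was -4.45 (SE 0.53), that of EGFP+ against viable cells -2.62 (SE 0.56) and that of EGFP- against viable cells 1.83 (SE 0.40), and these 3 comparisons share libraries. The size of the first differed between mice, at -2.72 in mouse 1 and -5.96 in mouse 2. Without the EGFP+ library of mouse 1, the EGFP+ against viable difference was -3.81. In bulk samples, fewer cells of a type and less RNA per cell cannot be told apart.

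Markers of several other cell types were, like *Igfbp4*, lower in EGFP+ than in EGFP- cells of both mice. The summed level of 8 upper follicle markers, 7 of them detected (*Plet1* at 0), was 706 and 864 CPM in EGFP+ cells against 6557 and 3873 CPM in EGFP- cells. That of 6 Langerhans cell markers, all detected, was 74.3 and 59.0 CPM against 1047 and 855 CPM, and that of 6 T cell markers, all detected, 7.43 and 4.22 CPM against 260 and 149 CPM. In single cells, *Igfbp4* had 0 transcripts in 38 Langerhans cell-like wells and 2 transcripts in 43 T cell-like wells. The 6 fibroblast markers, all detected, summed to 4.95 and 16.9 CPM in EGFP+ against 76.2 and 79.7 CPM in EGFP- cells, and to 128 and 8.83 CPM in viable cells. The 8 lower follicle markers, all detected, summed to 8279 and 9670 against 11115 and 13617 CPM, and 6 sebaceous markers, all detected, to 235 and 185 against 527 and 452 CPM. The 2 transcripts *Mir1950* and *Kcnq1ot1*, listed as markers of necrotic cells, summed to 7445 and 8047 against 11147 and 17086 CPM. Sums of interfollicular markers ran the other way, with 8 IFE II markers at 3328 and 3136 against 1358 and 903 CPM and 8 IFE I markers at 25444 and 24791 against 12657 and 15035 CPM. Between the EGFP- libraries, *Igfbp4* was higher in mouse 2, as were the lower follicle, fibroblast and necrotic sums. The upper follicle, Langerhans cell, T cell and sebaceous sums were lower in mouse 2. In viable cells, the upper follicle markers summed to 4329 and 3611 CPM. The part of these cell types and of RNA quality in the bulk difference was not tested.

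*Igfbp3*, the main IGF carrier of serum and a gene of many epithelia, ran the other way in bulk. It had 13 counts in viable, 14 in EGFP+ and 0 in EGFP- cells of mouse 1, and 16, 8 and 2 counts in those of mouse 2. In CPM these were 42.6, 34.7 and 0 in mouse 1 and 35.3, 33.7 and 10.6 in mouse 2. Both EGFP- libraries were therefore the lowest, while EGFP+ and viable cells were close to each other. Over both mice, the ratio of EGFP+ to EGFP- cells was 5.93 (exact 95% interval 1.46 to 52.0) and that of EGFP+ to viable cells 0.897 (0.491 to 1.62), where the intervals cover counting error only. *Igfbp3* did not reach the count filter of the bulk fit. Without that filter, its log2 difference of EGFP- against viable cells was -2.71 with adjusted p = 0.10 (edgeR quasi-likelihood test).

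*Igf1r*, the receptor, was present in every bulk library, at 374, 495 and 190 CPM in viable, EGFP+ and EGFP- cells of mouse 1 and at 362, 316 and 441 CPM in those of mouse 2. The 2 mice went opposite ways, and the populations overlapped. Its log2 difference was 0.19 (SE 0.32) for EGFP+ against viable cells (edgeR adjusted p = 0.991) and -0.10 (SE 0.34) for EGFP- against viable cells (edgeR adjusted p = 0.938). The background was 0.473% of 4653 genes tested called in the first comparison and 1.78% in the second, and 7.05% between EGFP+ and EGFP- cells. *Igf1r* and *Igfbp4* were the only 2 of the 7 members that passed the filter on low counts.

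The other 4 members were at the limit of the bulk libraries. *Igfbp2*, which promotes or restrains IGF action depending on the tissue, had 1 count in all, in EGFP- cells of mouse 1. *Igfbp5*, a carrier that also binds extracellular matrix, had 2 counts in viable and 1 in EGFP- cells of mouse 2. *Igfbp6*, which prefers IGF2, had 3 counts, all in EGFP- cells of mouse 1. *Igfbp7*, a secreted protein of vessel walls and stroma, had 1 count in each viable library, 4 and 1 counts in EGFP+ cells and 0 in EGFP- cells. Differences of these members were not detectable at this depth.

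To place the members in the epidermis, the wells of the 4 *Troy*-EGFP mice were clustered with all members and pathway genes left out. Clusters were named by marker genes as IFE I-like (basal interfollicular epidermis), IFE II-like (committed interfollicular epidermis), lower HF-like (lower hair follicle, with the bulge) and upper HF-like (upper hair follicle), with 165, 115, 151 and 68 wells of 680. The names come from the same cells that were compared, although not from the members. Transcripts were summed per mouse and class, and the 13 sums of at least 10 wells were tested. Mouse 1 had 10 IFE I-like wells and 7, 7 and 2 of the other classes, so it entered only the first. In the wells of the 4 classes, 5 of 6 fibroblast markers (*Lum* at 0) summed to 0 to 51.1 CPM and 2 of 4 endothelial markers (*Cdh5* and *Emcn* at 0) to 0 to 23.5 CPM per mouse. *Igfbp3*, *Igfbp4* and *Igf1r* were the 3 of 7 members that passed the filter on low counts.

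*Igfbp3* was found in both interfollicular classes and in lower HF-like cells, and it was not found in upper HF-like cells. In IFE I-like cells, it stood at 271, 111, 627 and 325 CPM in mice 1 to 4 (334 ± 216, SD, n = 4). In IFE II-like cells of mice 2 to 4, it stood at 178, 165 and 144 CPM (163 ± 17.0), and in lower HF-like cells at 61.3, 175 and 190 CPM (142 ± 70.2). Upper HF-like cells had 0 of 263789 transcripts in 68 wells of 4 mice, which allows up to 11.4 CPM (3 counts). Measured against that limit over the class, *Igfbp3* was at least 32.7-fold higher in IFE I-like, 13.7-fold in IFE II-like and 13.5-fold in lower HF-like cells. Without mouse 4 these bounds were 18.4, 7.49 and 5.45, and without mouse 3 the first was 16.4. The bounds pool the wells of all mice and take the higher level as measured, so they do not carry the spread between mice. Upper HF-like wells of mouse 2 alone held 56274 transcripts, so the limit within that mouse is higher.

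All 3 differences from upper HF-like cells passed the test, with adjusted p = 0.00174 for IFE I-like, 0.00708 for IFE II-like and 0.00728 for lower HF-like cells (edgeR quasi-likelihood test). The background was 5.63%, 5.12% and 6.2% of 3143 genes called in these comparisons. Without mouse 4 the adjusted p was 0.0618, 0.181 and 0.194, and without mouse 3 it was 0.123 for IFE II-like and 0.104 for lower HF-like cells. Of all genes, 1.23%, 0.144% and 0.577% were called without mouse 4. Without mouse 3, 0% were called for IFE II-like and 0.623% for lower HF-like cells. With 2000 transcripts as the minimum per well, the adjusted p was 0.115 for IFE II-like and 0.132 for lower HF-like cells, and without regression of mouse before clustering it was 0.0672 for IFE II-like cells. The direction was the same in all 15 alternatives for each of the 3.

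Between the classes that contained *Igfbp3*, IFE I-like cells were higher on average, but mouse 2 had less in IFE I-like than in IFE II-like cells, and the ranges overlapped. The log2 difference of IFE I-like against IFE II-like cells was 1.03 (SE 0.55), with edgeR adjusted p = 0.454, against a background of 4.14% of genes called. Fitted with a term for each mouse as a block, since the classes of 1 animal are paired, the difference was 1.21 and the adjusted p was 0.0098, and 11.7% of genes were called. Without mouse 2 it was 1.38 and 0.0197. Against lower HF-like cells, IFE I-like cells differed by 1.13 (SE 0.54, edgeR adjusted p = 0.330, background 7.19%), and with the mouse block by 1.16 (adjusted p = 0.0106, with 15.4% of genes called). IFE II-like and lower HF-like cells differed by 0.10 (SE 0.59, edgeR adjusted p = 0.966, background 10.4%).

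*Igfbp4* had nearly the opposite order, with the follicle classes above the interfollicular classes. In upper HF-like cells of mice 2 to 4, it stood at 71.1, 674 and 807 CPM (517 ± 392, SD, n = 3), and in lower HF-like cells at 399, 249 and 248 CPM (299 ± 86.4). In IFE I-like cells of mice 1 to 4 it stood at 0, 7.95, 41.8 and 99.4 CPM (37.3 ± 45.2), and in IFE II-like cells of mice 2 to 4 at 19.8, 8.25 and 12.7 CPM (13.6 ± 5.83). Lower HF-like cells did not overlap with either interfollicular class, whereas upper HF-like cells of mouse 2 were below IFE I-like cells of mouse 4. In upper HF-like cells of mouse 4, 1 well gave 30 of the 103 molecules.

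*Igfbp4* was lower in IFE I-like cells than in lower HF-like cells by a log2 difference of -2.60 (SE 0.73, edgeR adjusted p = 0.0430) and than in upper HF-like cells by -3.38 (SE 0.73, edgeR adjusted p = 0.0118). IFE II-like cells were lower than lower HF-like cells by -4.55 (SE 0.98, edgeR adjusted p = 0.00693) and than upper HF-like cells by -5.33 (SE 0.98, edgeR adjusted p = 0.00476). These 4 calls did not hold when mouse 3 or mouse 4 was left out. Without mouse 3, the adjusted p was 0.373, 0.267, 0.189 and 0.244, and without mouse 4 it was 0.0896, 0.0943, 0.0946 and 0.181. Of all genes, 1.72%, 1.01%, 2.97% and 0% were called without mouse 3, and 1.62%, 1.23%, 2.78% and 0.144% without mouse 4. With all mice the shares were 7.19%, 5.63%, 10.4% and 5.12%. The IFE I-like against lower HF-like call was also lost without mouse 1 (adjusted p = 0.0784, with 6.59% of all genes called). With the mouse block all 4 adjusted p-values were at or below 5.93e-05, with 15.4%, 14.9%, 21% and 14.9% of all genes called. The direction held in each of the 15 alternatives.

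The 2 follicle classes differed in *Igfbp4* by a log2 difference of -0.78 for lower against upper HF-like cells (SE 0.70, edgeR adjusted p = 0.732, background 6.2%), and without mouse 2 by -1.41 (adjusted p = 0.0376). The 2 interfollicular classes differed by 1.94 for IFE I-like against IFE II-like cells (SE 1.01, edgeR adjusted p = 0.433), with the mouse block by 2.28 (adjusted p = 0.0443) and without mouse 2 by 2.51 (adjusted p = 0.0297). A p-value above the threshold does not show that these pairs were alike. Of the 3 members that passed the filter on low counts, none passed the test between IFE I-like and IFE II-like cells without the block, with edgeR (0 at an unadjusted p under 0.05) or with DESeq2. With no filter on low counts, *Igfbp7* passed in this comparison (log2 4.14, edgeR adjusted p = 0.00885, with 1.33% of 16251 genes called), a call that rests mainly on mouse 2, which gave 25 of its 28 transcripts in IFE I-like cells, 13 of them in 1 well. In the same fit, *Igfbp3*, *Igfbp4* and *Igfbp5* had unadjusted p = 0.0311, 0.00458 and 0.0118.

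**Figure D1:**
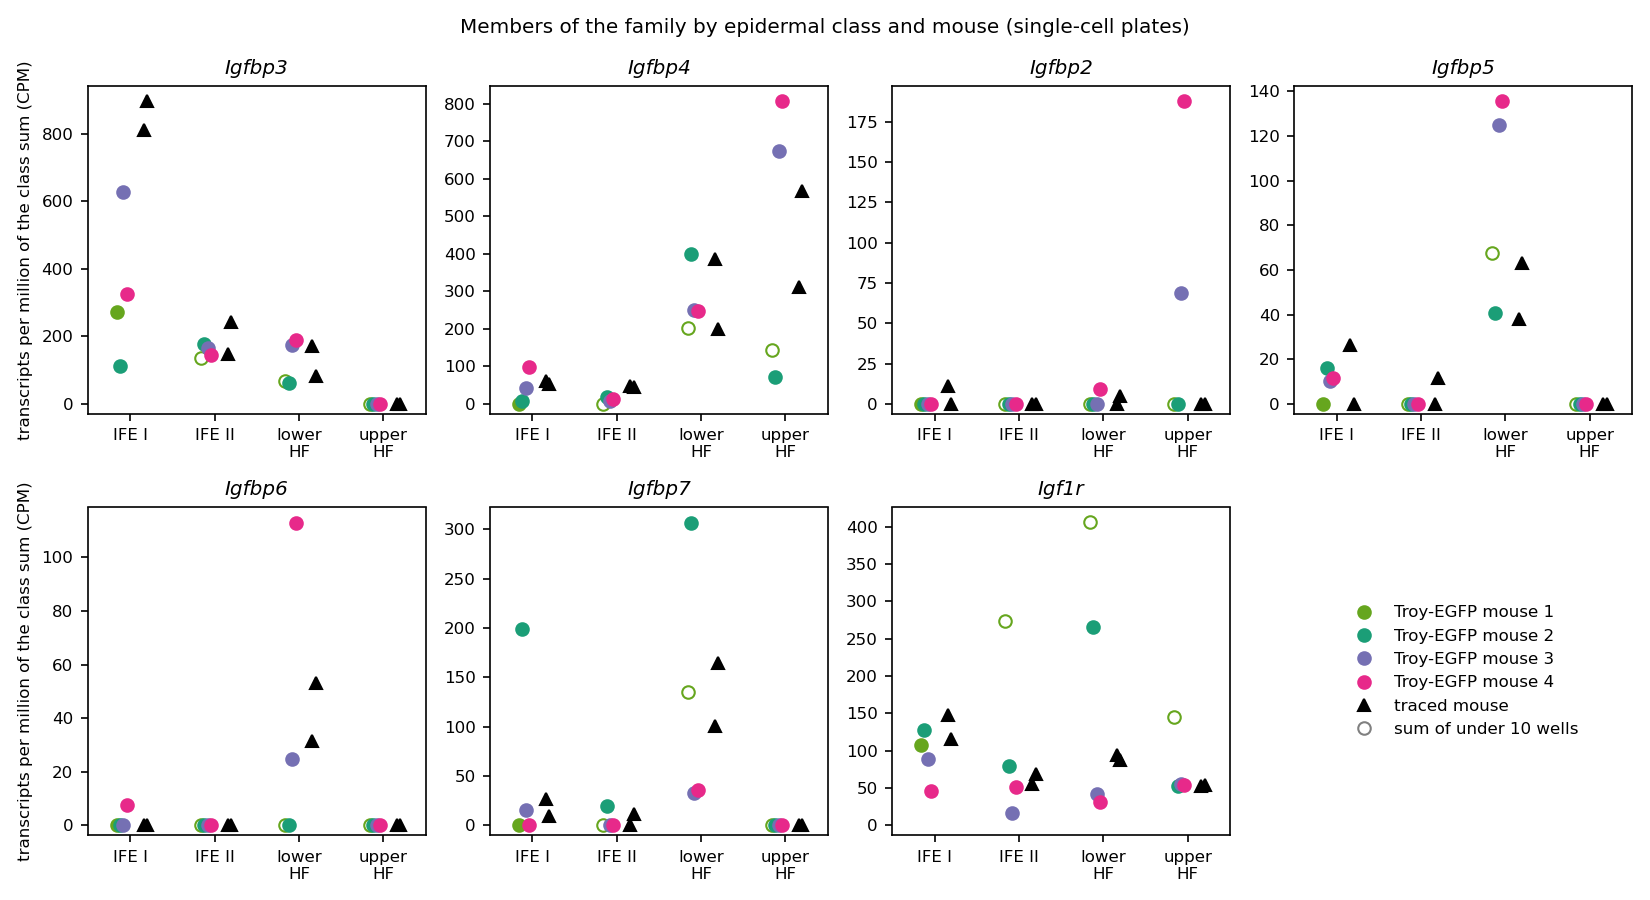
CPM of the 7 members (vertical axes) in the 4 epidermal classes, with a point per mouse for the 4 *Troy*-EGFP mice and the 2 traced mice, where hollow marks are sums of fewer than 10 wells. *Igfbp3* was at 0 in upper HF-like cells of all 6 mice, and *Igfbp4* was higher in both follicle classes than in IFE II-like cells of the same mouse.

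*Igf1r* did not pass the test in any of the 6 class comparisons, with adjusted p from 0.409 to 0.961 (edgeR). It was found in every class of every mouse. It stood at 108, 127, 88.8 and 45.8 CPM in IFE I-like cells of mice 1 to 4 (92.5 ± 34.9, SD, n = 4) and at 53.3, 55.0 and 54.8 CPM in upper HF-like cells of mice 2 to 4. In lower HF-like cells, mouse 2 was high, at 266 CPM, and mice 3 and 4 were at 41.6 and 31.6 CPM. In IFE II-like cells, the values were 79.2, 16.5 and 51.0 CPM. The classes overlapped in their levels.

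*Igfbp5*, *Igfbp6* and *Igfbp7* had most of their transcripts in lower HF-like cells, but they were too scarce for the filter on low counts. *Igfbp5* stood at 40.9, 125 and 136 CPM in lower HF-like cells of mice 2 to 4 (100 ± 51.8, SD, n = 3), at 0 to 15.9 CPM in IFE I-like cells, and at 0 in IFE II-like and upper HF-like cells of all mice. Of the 30 molecules in mouse 4, 16 came from a single well. Against the limit of 3 counts over the class, *Igfbp5* was at least 20.2-fold higher in lower HF-like than in IFE II-like cells and at least 9.68-fold higher than in upper HF-like cells. Without mouse 4 these bounds were 9.01 and 3.89, and without mouse 3 the first was 10.8. *Igfbp6* stood at 0, 24.9 and 113 CPM in lower HF-like cells of mice 2 to 4 and was at 0 in IFE II-like cells. The bound over IFE II-like cells was 11.3-fold, but 25 of its 28 lower HF-like transcripts came from mouse 4, and the 3 that remained without it were too few for a bound. One IFE I-like well of mouse 4 gave it 2 transcripts.

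*Igfbp7* differed strongly between mice. It stood at 307 CPM in lower HF-like cells of mouse 2, with 30 transcripts in 14 of 40 wells, and at 33.2 and 36.1 CPM in those of mice 3 and 4. In mouse 2 it also stood at 199 CPM in IFE I-like cells, where 13 of 25 molecules came from 1 well of 39, against 0, 15.7 and 0 CPM in mice 1, 3 and 4. It was at 0 in upper HF-like cells, at least 8.51-fold below lower HF-like cells, and without mouse 2 at least 2.72-fold.

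Of the 31 *Igfbp2* transcripts in the 4 classes, 29 were in upper HF-like cells. It stood at 0, 68.7 and 188 CPM in those of mice 2 to 4, in 8 of 68 wells, and 2 transcripts were found in lower HF-like cells of mouse 4. In IFE I-like and IFE II-like cells it had none, so that it was at least 22.6-fold and 20.2-fold higher in upper HF-like cells. Mouse 4 gave 24 of the 29 transcripts, and without it these bounds were 4.34 and 3.86. Without mouse 3 the second was 12.9. In the fit without a filter on low counts, which kept all 16251 genes, lower and upper HF-like cells differed in *Igfbp2* (adjusted p = 0.0135), *Igfbp5* (0.000484), *Igfbp6* (0.0338) and *Igfbp7* (0.000142) by edgeR, with 1.51% of genes called. The unfiltered fit called 3 of 7 members for IFE I-like against lower HF-like cells (2.28% of genes) and 4 against upper HF-like cells (1.8%), and for IFE II-like cells 4 (2.98%) and 3 (1.46%). Between lower and upper HF-like cells, *Igfbp2* and *Igfbp6* rest on 2 mice with transcripts in the higher class, and *Igfbp5* and *Igfbp7* on 3.

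The lower HF-like class joined 2 clusters, led by *Cd34* (106 wells) and by *Aspn* (45 wells), and some members differed between them. The values are given without a test. In mice 2 to 4, *Igfbp3* stood at 95.9, 222 and 252 CPM in *Cd34*-led cells and at 0, 33.3 and 17.0 CPM in *Aspn*-led cells. *Igfbp4* stood at 320, 155 and 135 CPM in *Cd34*-led cells and at 538, 533 and 562 CPM in *Aspn*-led cells. In each of the 3 mice, *Igfbp3* was higher in the first and *Igfbp4* in the second, with no overlap. Of the 6 members with at least 20 transcripts in these cells, these 2 did not overlap, and of 3523 genes with as many transcripts 12.8% did not. *Igfbp6* was found in *Cd34*-led cells of mice 3 and 4 (33.2 and 154 CPM) and in no *Aspn*-led well of these mice. *Igfbp5* gave no such order, with 0, 144 and 79.8 CPM against 113, 66.6 and 290 CPM. *Igfbp7* stood at 208, 44.3 and 42.99 CPM in *Cd34*-led and 482, 0 and 17.0 CPM in *Aspn*-led cells, and *Igf1r* at 240, 33.2 and 42.99 CPM and 312, 66.6 and 0 CPM, so that both overlapped. *Igfbp2* had 1 transcript in each cluster.

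**Figure D2:**
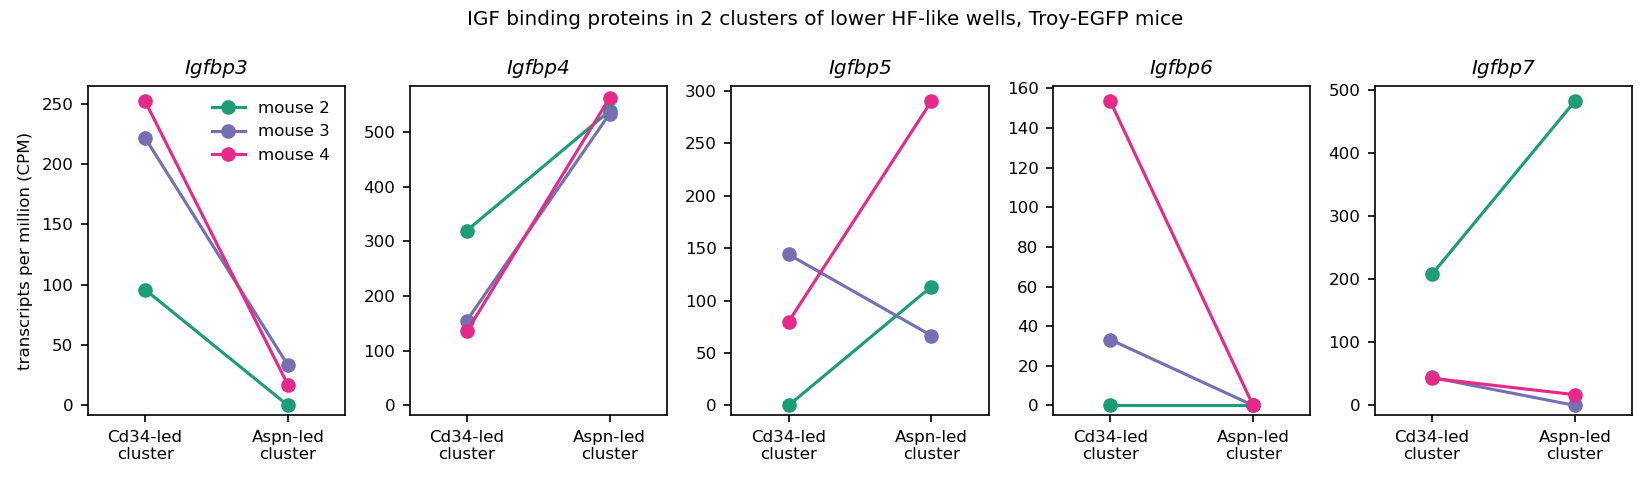
CPM (vertical axes) of the members in the *Cd34*-led and *Aspn*-led clusters of lower HF-like cells, with a point for each of mice 2, 3 and 4 and a line joining the clusters of 1 mouse. *Igfbp3* fell and *Igfbp4* rose from the *Cd34*-led to the *Aspn*-led cluster in all 3 mice as values without a test, from 95.9 to 252 CPM to 0 to 33.3 CPM and from 135 to 320 CPM to 533 to 562 CPM.

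Single wells were compared at equal depth by thinning each to 1000 observed barcodes, which left out 1 of the 165 IFE I-like wells and none of the other 3 classes. *Igfbp3* was then found in 19.5% of IFE I-like wells (exact 95% interval 13.7 to 26.4), 13.0% of IFE II-like wells, 11.9% of lower HF-like wells and 0% of wells of the upper HF-like class (up to 5.28), and in 0 of 43 T cell-like and 0 of 38 Langerhans cell-like wells. Before thinning it was found in 60 of 165, 33 of 115, 31 of 151 and 0 of 68 wells of the 4 classes. *Igfbp4* was found in 36.8% of upper HF-like (25.4 to 49.3), 21.2% of lower HF-like, 6.71% of IFE I-like and 1.74% of IFE II-like thinned wells, against 2.33% of T cell-like and 0% of Langerhans cell-like wells. The *Igfbp4* share of IFE II-like wells (2 of 115) was not above that of T cell-like wells and is not read as expression, although the latter rests on 1 of 43 wells (interval 0.0589 to 12.3). The interval of IFE I-like wells (3.40 to 11.7) also overlapped it. Wells of 1 plate share an animal, and these intervals cover counting error only.

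The 2 genes were found together in thinned wells about as often as the product of their shares gives. Of the IFE I-like wells, 30 held *Igfbp3* only, 9 *Igfbp4* only and 2 both, and of the lower HF-like wells 15, 29 and 3. The product of the shares gives 2.15 and 3.81 wells with both. In upper HF-like wells 25 held *Igfbp4* and none held *Igfbp3*.

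**Figure D3:**
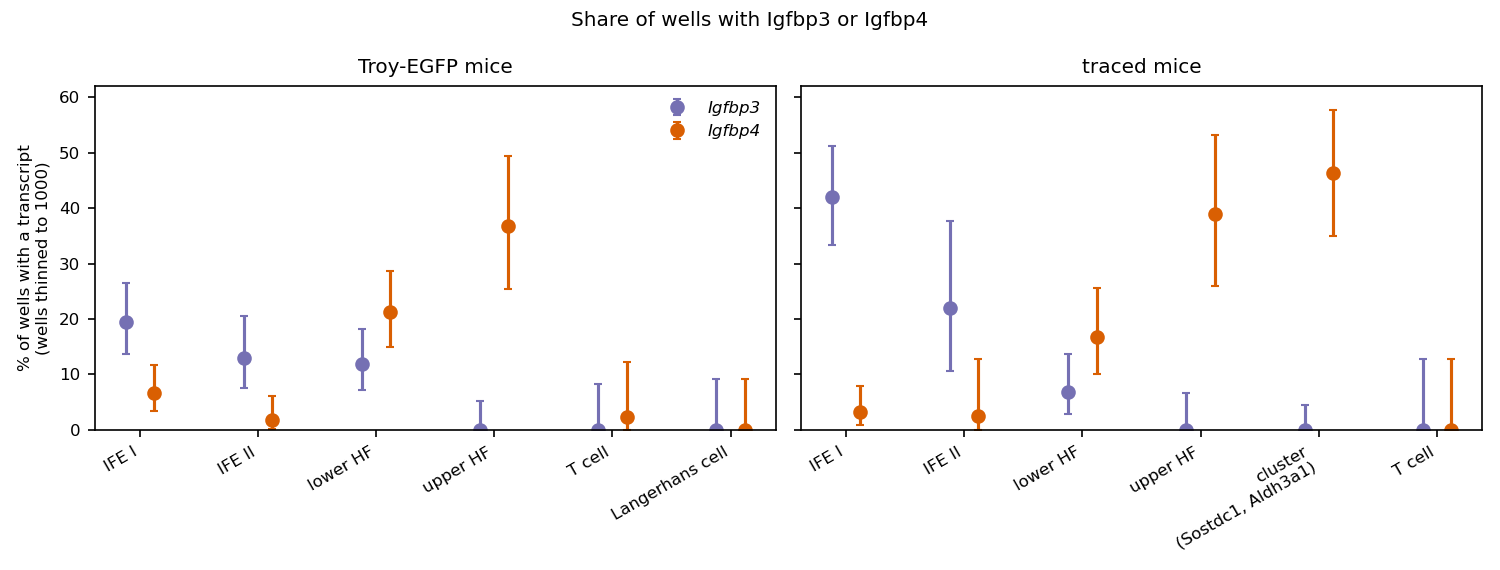
Share of wells (percent, vertical axis) with *Igfbp3* or *Igfbp4* after thinning wells to 1000 observed barcodes, by class, for the 4 *Troy*-EGFP mice and the 2 traced mice, with exact 95% binomial intervals as bars. *Igfbp3* was found in 19.5% of IFE I-like wells of *Troy*-EGFP mice and in no upper HF-like well, and *Igfbp4* in 36.8% of upper HF-like wells.

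The 2 traced mice were clustered apart from the others, and their values are a description, since *Igfbp3* had been chosen on them. *Igfbp3* stood at 810 and 897 CPM in IFE I-like cells, at 149 and 243 CPM in IFE II-like cells, at 171 and 82.3 CPM in lower HF-like cells and at 0 and 0 CPM in upper HF-like cells. It was found in 44 of 70 and 41 of 56 IFE I-like wells. In both mice IFE I-like cells were the highest class and upper HF-like cells the lowest, at least 30.4-fold apart in mouse 1 and 27.4-fold in mouse 2 by the limit of 3 counts in the class of that mouse. *Igfbp4* stood at 311 and 567 CPM in upper HF-like and 386 and 198 CPM in lower HF-like cells, against 60.8 and 53.3 CPM in IFE I-like and 46.6 and 46.4 CPM in IFE II-like cells. Both follicle classes were above both interfollicular classes in each mouse.

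*Igf1r* in traced mice stood at 148 and 116 CPM in IFE I-like cells, 55.9 and 69.5 in IFE II-like, 94.8 and 87.1 in lower HF-like and 53.3 and 54.5 CPM in upper HF-like cells. Of the 4 named classes, the IFE I-like cells were the highest in both mice. *Igfbp5*, *Igfbp6* and *Igfbp7* stood at 37.9 and 62.9, 31.6 and 53.2, and 101 and 165 CPM in lower HF-like cells and were all at 0 in upper HF-like cells. *Igfbp2* was at 0 in upper HF-like cells of both traced mice.

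A traced cluster of 80 wells (38 and 42 per mouse) could not be named by the markers. Its leading genes by fold were *Dct*, which came from 1 well, *Vim*, *Sostdc1*, *Lgals9* and *Aldh3a1*. *Igfbp4* stood at 495 and 1195 CPM in it, above every named class of the same mouse, and *Igfbp3* at 0 and 19.0 CPM. After thinning, 37 of its wells held *Igfbp4* only and none held *Igfbp3*. The separate cluster depends on the resolution of the clustering. At a resolution of 0.5, 77 of the 80 wells fell into an upper HF-like cluster of 132 wells, in which *Igfbp4* stood at 435 and 1000.5 CPM, *Igfbp3* at 0 and 11.99 CPM and *Igfbp2* at 3.75 and 11.99 CPM.

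The genes around the members were described by a list of 52 IGF pathway genes, namely ligands, receptors, adaptors, proteases and other partners of the carriers, other proteins with an IGFBP domain, kinases with their targets, and *Igfbp1*. Of these, 17 passed the filter in bulk and 15 in single cells, which is not the whole list. In single cells, IFE I-like cells had 0 list genes higher and 0 lower against IFE II-like (4.14% of all genes called), 1 and 3 against lower HF-like (7.19%), and 1 and 2 against upper HF-like cells (5.63%). IFE II-like cells had 0 higher and 4 lower against lower HF-like (10.4%) and 0 and 1 against upper HF-like cells (5.12%), and lower HF-like cells had 1 and 1 against upper HF-like cells (6.2%). The median log2 difference of the 15 genes lay between -0.50 and 0.33 in the 6 comparisons, and that of all 3143 genes between -0.03 and 0.04. No pathway gene passed the test between EGFP+ and viable or between EGFP- and viable bulk cells (edgeR, with 1 and 2 genes at an unadjusted p under 0.05, and 0 with DESeq2). Between EGFP+ and EGFP- cells, *Htra1*, a secreted protease that cuts IGF carriers, was the single gene of 17 past the threshold, where 7.05% of all genes were called. Its log2 difference was 1.23 (SE 0.36) toward EGFP+ cells, given as a description. DESeq2 called none of the 17 in this comparison.

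Among the proteases, *Htra1* was higher in IFE I-like cells than in lower HF-like cells by a log2 difference of 2.34 (SE 0.53, edgeR adjusted p = 0.0131) and than in upper HF-like cells by 2.51 (SE 0.58, edgeR adjusted p = 0.0178). It stood at 273 ± 93.5 CPM (SD, n = 4) in IFE I-like cells. *Ctsd*, the lysosomal protease cathepsin D, was higher in upper HF-like cells, at 327 ± 121 CPM (SD, n = 3), than in IFE I-like cells (log2 -1.52, edgeR adjusted p = 0.0219) and than in lower HF-like cells (log2 -1.59, edgeR adjusted p = 0.0270).

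Of the 11 genes listed for an IGFBP domain, only *Ctgf*, *Crim1* and *Cyr61* passed the filter on low counts, and the others were not tested. Each of these was called with lower HF-like cells as the higher class in at least 1 comparison. A gene high in 1 class can pass the filter through that class. Of all genes, 7.19%, 10.4% and 6.2% were called for lower HF-like against IFE I-like, IFE II-like and upper HF-like cells. HTRA1, listed with the proteases, has an IGFBP domain too, and its gene ran the other way, as given above. *Ctgf*, a matrix-associated growth regulator, stood at 633 ± 105 CPM in lower HF-like (SD, n = 3), 9.86 ± 15.1 in IFE I-like (n = 4) and 24.2 ± 28.0 in upper HF-like cells (n = 3). Its log2 difference was -5.90 for IFE I-like against lower HF-like cells (edgeR adjusted p = 0.000119), -7.10 for IFE II-like against lower HF-like cells (0.000125) and 4.97 for lower against upper HF-like cells (0.00176). *Crim1*, a membrane protein with an IGFBP-like motif, was lower in IFE I-like than in lower HF-like cells by -1.52 and in IFE II-like than in lower HF-like cells by -2.48 (edgeR adjusted p = 0.00831 and 0.000483). IFE II-like cells were also below upper HF-like cells in *Crim1*, by -1.36 (adjusted p = 0.0480). *Cyr61*, a relative of *Ctgf*, differed between IFE II-like and lower HF-like cells by -4.16 (edgeR adjusted p = 0.0429).

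*Pik3r1*, a regulatory subunit of PI3 kinase, was the kinase pathway gene that passed the test. It was lower in IFE I-like than in lower HF-like cells (log2 -2.64, edgeR adjusted p = 0.00035) and upper HF-like cells (-1.46, 0.0311), and in IFE II-like than in lower HF-like cells (-2.13, 0.00231). No pathway gene passed between IFE I-like and IFE II-like cells with edgeR, where 3 had an unadjusted p under 0.05, and DESeq2 called none. Other edgeR settings called list genes as higher in IFE I-like cells. No filter on low counts called 1 of 43 (1.33% of all genes) and at least 20 wells per sum 1 of 19 (3.7%). Wells of at least 2000 transcripts gave 1 of 19 (3.44%), and leaving out mouse 2 gave 2 of 19 (6.91%). With the mouse block, *Htra1* (log2 1.88), *Crim1* (1.11) and *Cyr61* (3.95) were higher in IFE I-like cells, with edgeR adjusted p = 0.00016, 0.00471 and 0.00213. That fit called 11.7% of all genes in this comparison. The block also added *Pik3r1* between IFE II-like and upper HF-like cells (log2 -0.99, adjusted p = 0.0401), and *Crim1* (1.12, 0.00106) and *Pik3r1* (1.16, 0.0035) between lower and upper HF-like cells, which gives 2 list genes lower in the first (14.9% of all genes called) and 3 higher and 1 lower in the second comparison (14.3%). The ligands were scarce, with *Igf1* at 4 transcripts over all IFE I-like wells and 0 over lower HF-like wells, and *Igf2* at 3 and 2 transcripts.

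Calls of the pathway genes also depended on single mice, as did those of all genes. Over the class comparisons, 0% to 2.97% of all genes were called without mouse 3 and 0.0722% to 2.78% without mouse 4, against 4.14% to 10.4% with all mice. The *Ctgf* calls of both interfollicular classes against lower HF-like cells, *Crim1* of IFE II-like and *Pik3r1* of IFE I-like against lower HF-like cells held in all 15 alternatives. Without mouse 3 or without mouse 4, the *Htra1* calls (adjusted p = 0.0563 to 0.323), the *Ctsd* calls (0.129 to 0.571), the other *Crim1* calls (0.132 to 0.685) and the other *Pik3r1* calls (0.0953 to 0.248) were lost. The *Ctgf* call between lower and upper HF-like cells was lost without mouse 4 (0.123). The *Cyr61* call held in the 13 alternatives that tested it, and without mouse 3 or mouse 4 it had no value. Without mouse 2, the *Pik3r1* call of IFE I-like against upper HF-like cells was lost as well (0.116). Settings that kept all mice also ended calls against upper HF-like cells. With mouse not regressed out in the clustering, the calls of IFE I-like cells were lost for *Htra1* (0.576), *Pik3r1* (0.333) and *Ctsd* (0.0777), as was that of lower HF-like cells for *Ctsd* (0.0549). With no filter on low counts, those of *Crim1* in IFE II-like cells (0.346), *Pik3r1* in IFE I-like cells (0.237) and *Ctsd* in IFE I-like (0.161) and lower HF-like cells (0.179) were lost. With other minimum numbers of cells or transcripts, the lost calls of *Crim1*, *Ctsd*, *Htra1* and *Pik3r1* had adjusted p between 0.0528 and 0.219.

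The genes whose levels followed a member most closely were ranked by Pearson's r of log2(CPM + 10) over the 13 class sums, among 1535 genes, as a description. The sums share mice and plates. For *Igfbp3* these were *Rpl13* (0.92), *Capns2* (0.86), *Fth1* (0.85), *5430435G22Rik* (0.85) and *Hif1a* (0.84). *Sod1* (0.92), *Efnb2* (0.92), *Steap4* (0.90), *Sptbn1* (0.89) and *Myl6* (0.89) were closest to *Igfbp4*. For *Igf1r* they were *Nptn* (0.90), *Ppp3ca* (0.87), *Ephx1* (0.86), *Prrc2c* (0.85) and *Ccni* (0.83).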

How the data were processed

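The authors deposited bulk read counts per gene (CEL-Seq2, which reads 3' ends, so a longer gene does not gain counts by its length) and, per well, SORT-seq estimated transcript counts corrected for barcode saturation. The deposited plate values matched whole numbers of 6-base molecular barcodes within 1e-06. The submitters' processing notes name BWA 0.6.2-r126, mm10, GRCm38 and hg19. Members and gene lists were chosen with earlier results of these data known. All 7 members were named, with pathway genes that passed (at most 6 per comparison) and the 5 genes most like each member with at least 100 transcripts.

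Here, counts were tested with edgeR 4.0.16 (R 4.3.3) by its quasi-likelihood F test after TMM scaling and filterByExpr, adjusted by Benjamini-Hochberg over all genes, with a threshold of 0.05, 1 mean per population or class and DESeq2 1.42.0 as an alternative. Estimated counts were summed per mouse and class and rounded. Wells of at least 1000 transcripts were clustered with Seurat 5.3.0 and sctransform 0.4.2 (mouse regressed out, resolution 0.8). All plates used the same 384 well barcodes. The authors' removal markers were followed; doublets were not called. Fold limits against 0 used 3 counts and took the higher level as measured. For the *Troy*-EGFP mice they pooled the wells of all mice, and leaving out each mouse from them was added after seeing the data. Replicates were separate mice. Populations and classes of 1 mouse came from 1 animal, which pairs them: deviations of a mouse correlated at 0.0527 to 0.0911 in bulk and 0.322 to 0.621 in single cells. The method was tested on simulated data.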

Additional observations from a re-analysis of the deposited data

Results flagged for a closer look

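Of 20 groups of 4 mice, 5 held a mouse far from the other 3 (by Dixon's test at the 95% level), where chance gives about 1 in 20 groups. In 3 of the 5, *Igfbp6* in IFE I-like, *Igfbp7* in IFE II-like and *Igfbp2* in lower HF-like cells, the other 3 mice were at 0, so 1 or 2 transcripts set the mouse apart and that rate does not apply. *Igfbp7* stood at 199 CPM in IFE I-like cells and 19.8 CPM in IFE II-like cells of mouse 2. *Igfbp6* stood at 7.64 CPM in IFE I-like cells of mouse 4, from 1 well, and *Igfbp2* at 9.03 CPM in lower HF-like cells of mouse 4. *Igf1r* stood at 145 CPM in upper HF-like cells of mouse 1, a sum of 2 wells that entered no test.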

How the results depend on the processing

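The number of members past the threshold was 0 in both bulk comparisons with viable cells (with *Igf1r* alone tested, and 0.473% and 1.78% of all genes called) and 0, 1, 2, 1, 2 and 1 of 3 tested for IFE I-like against IFE II-like, then IFE I-like against each of lower HF-like and upper HF-like, then IFE II-like against each of these, and lower against upper HF-like cells, with 4.14%, 7.19%, 5.63%, 10.4%, 5.12% and 6.2% of all genes called. In this order, the single-cell counts without a filter on low counts were 1, 3, 4, 4, 3 and 5 of 7 members, with 1.33%, 2.28%, 1.8%, 2.98%, 1.46% and 1.51% of 16251 genes called. Paired by mouse as a block, the first 2 counts were 2 and 2 (11.7% and 15.4%), and the block changed no other call of a member. With at least 20 wells per sum, the count was 2 for IFE I-like and IFE II-like against lower HF-like and for lower against upper HF-like cells (7.43%, 10.3% and 4.55%). Without regression of mouse, these 3 were 2 (6.28%, 8.39% and 3.28%) and IFE II-like against upper HF-like cells was 1 (2.66%). DESeq2 gave 2 for IFE II-like against lower HF-like (1.9%) and for lower against upper HF-like cells (1.06%), and wells of at least 2000 transcripts gave 1 for IFE II-like (3.91%) and 0 for lower (3.17%) against upper HF-like cells. Leaving out 1 replicate gave 0 to 1 for EGFP- against viable (0.543% to 8.31%), and 0 to 2 for the class comparisons (0% to 11.8%) except lower against upper HF-like cells, where it gave 0 to 4 (0.577% to 6.39%). The 1 in bulk was not *Igf1r*, whose adjusted p for EGFP- against viable was 0.0996 or more in every alternative (edgeR or DESeq2).

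Directions turned for *Igf1r* and for *Igfbp3* in comparisons that did not pass. Leaving out 1 replicate, the *Igf1r* log2 difference ran from -0.10 (without the EGFP- library of mouse 1, and -0.06 without its EGFP+ library) to 1.04 for EGFP+ against EGFP-, from -0.19 (without EGFP+ of mouse 1) to 0.46 for EGFP+ against viable, and from -0.82 to 0.30 (without EGFP- of mouse 1) for EGFP- against viable. In single cells it ran from -0.68 to 0.86 (without mouse 2) for IFE I-like against lower HF-like, from -0.56 to 0.28 (without mouse 3) for IFE II-like against upper HF-like, where at least 5 wells per sum gave 0.35, and from -0.45 (without mouse 2) to 1.503 for lower against upper HF-like cells. That of *Igfbp3*, IFE II-like against lower HF-like, ran from -0.28 (without mouse 2) to 0.55, and was -0.057 with the mouse block and -0.080 without regression of mouse. The cause was not tested.

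With the mouse block, the number of all genes called was 468, 49 and 163 in bulk (EGFP+ against EGFP-, EGFP+ against viable, EGFP- against viable) and 367, 483, 468, 661, 469 and 450 in the class comparisons, against 328, 22 and 83, and 130, 226, 177, 326, 161 and 195. DESeq2 called 141, 10 and 33 in bulk, no filter 43 and 133 in the comparisons with viable cells, and fits of only the 2 populations compared 151, 66 and 38. No filter called 216, 370 and 293 for IFE I-like cells against the other classes, and wells of at least 2000 transcripts 128 for lower against upper HF-like cells. Leaving out 1 mouse or library gave 7 to 751 in bulk and 0 to 537 in single cells. Depth limits *Igfbp2*, *Igfbp5*, *Igfbp6* and *Igfbp7*, with at most 30 transcripts in a class of a *Troy*-EGFP mouse.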
